A study of Mus musculus with 8 samples.

Results

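The endothelial and pericyte marker module was a set of 38 genes read by the cells of blood and lymph vessels and by the mural cells that wrap them. Its members were listed by symbol as known vessel genes. The rule names no measured value, but the list was drawn up with earlier results of these data known. All 38 were found among the 43629 genes counted, and all 38 were among the 17129 with enough counts to be tested. Both groups were mouse embryos at E18.5 that carried the floxed Jagged1fl/fl alleles. The 4 Mutant embryos (K14J26, K14J28, K14J29 and K14J30) also carried K14Cre, whose keratin 14 promoter drives the recombinase in epithelium and not in vessel cells. The 4 Control embryos (J3, J5, J6 and J7) had no Cre. Each library held the left and right lower first molars of 1 embryo, and the total counts ran from 17327224 to 29792467. The methods of the study call the controls wild-type littermates, while their sample labels give Jagged1fl/fl. The labels tie no embryo to a litter, so the p-values measure the spread between these embryos.

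Endothelial cells line every vessel. They are joined by surface proteins such as PECAM1 and VE-cadherin, grow in answer to VEGF through the receptors KDR and FLT1, and are stabilised by angiopoietin 1 from the surrounding mesenchyme, which acts on the receptor TEK. Their PDGF-B ligand holds pericytes, which read it through PDGFRB. In the developing tooth, capillaries fill the dental papilla and come to lie close to the odontoblasts and to the enamel epithelium as hard tissue is formed. Jagged1 is a Notch ligand that both epithelium and endothelium can make.

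The deletion was visible in the libraries. Jag1 stood at 95.2, 103, 104 and 99.9 CPM (counts scaled to the size of the library) in J3, J5, J6 and J7, and at 34.0, 39.0, 46.0 and 57.1 CPM in K14J26, K14J28, K14J29 and K14J30. All Mutant embryos were below all Control embryos, and the log2 fold change was −1.19 ± 0.14 (SE, n = 4 and 4; adjusted p = 0.00517, by the quasi-likelihood test of edgeR and the Benjamini-Hochberg method). Throughout, fold changes are Mutant over Control, adjusted p comes from this test over all 17129 genes, and a gene is said to have risen or fallen where that p was under 0.05.

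Of the vessel module, 4 members fell and 1 rose. Those that fell were Robo4, Tie1, Ramp2 and Pdgfrb, 10.5% of the members, while 6.61% of all genes tested fell. The member that rose was Fli1, 2.63% of the members, while 9.52% of all genes tested rose. Differences were small: 36 of the 38 members had a log2 fold change within 0.5 of zero, and the 95% interval lay within 1.5-fold in either direction for 32 of 38, or 84.2%, beside 52.9% of all genes tested. The sign was mostly negative, below zero for 29 members (76.3%) and above it for 9, beside 49.3% below zero over all genes. The median log2 fold change was −0.12 for the members and 0.01 for all genes tested. The count that fell was 1 without J3, J5, J7 or K14J29, where the share of all genes that fell was 1.68%, 2.28%, 1.39% and 1%. It was 8 without K14J28 and 8 in DESeq2, beside 10.9% and 10% of all genes. Without J6 and J7 together it was 0 in edgeR, where 4 genes of all those tested fell. In bulk molars, fewer vessel cells and less RNA per vessel cell cannot be told apart.

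**Figure D1:**
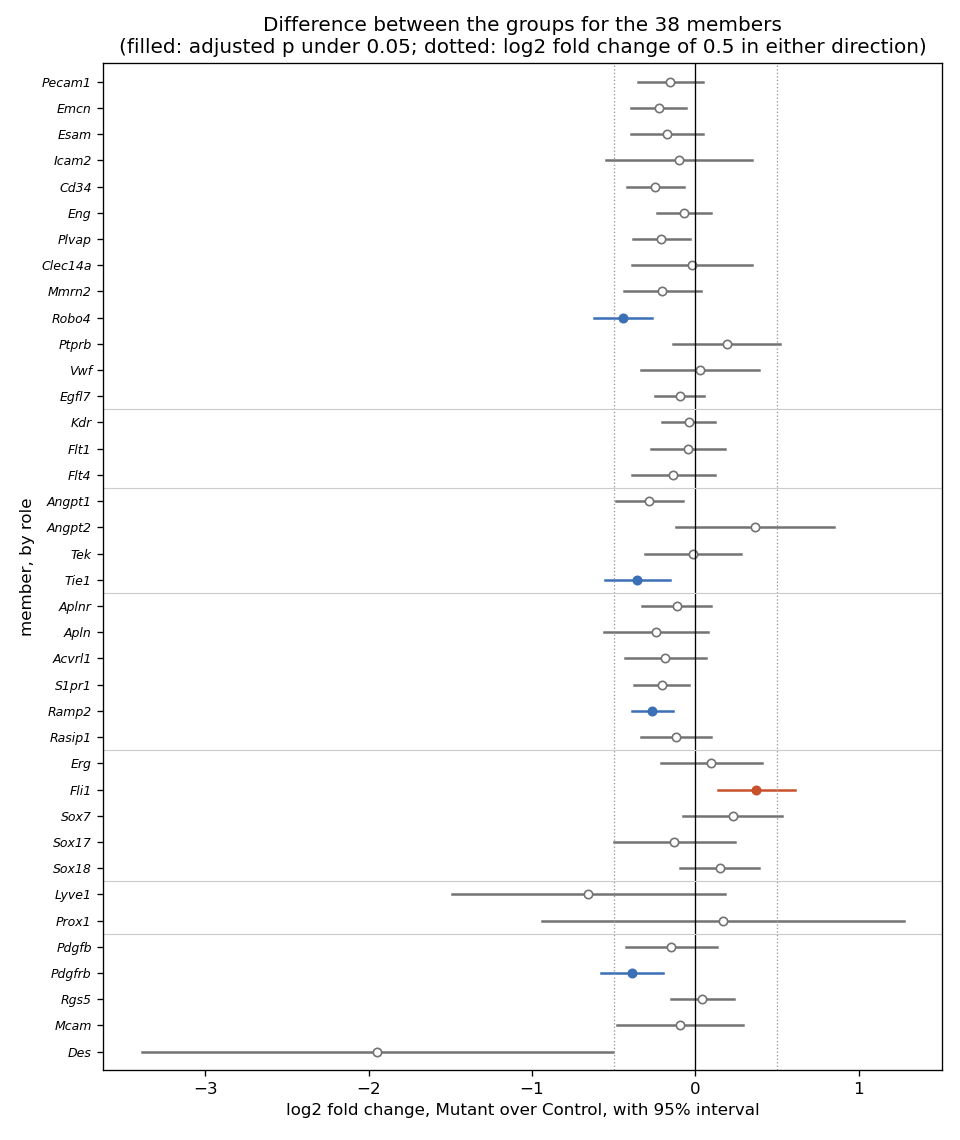
Log2 fold change (Mutant over Control) of each of the 38 members with its 95% interval, grouped by role from surface proteins at the top to mural genes at the bottom. Filled points passed the test (blue lower, orange higher), and the dotted lines mark a log2 fold change of 0.5 in either direction; 36 of 38 points lie between them.

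The groups did not overlap for 8 members. In 7 of them (Cd34, Plvap, Robo4, Angpt1, Tie1, Ramp2 and Pdgfrb; 18.4%) every Mutant embryo was below every Control embryo, as in 11.6% of all genes tested. In Fli1 (2.63%) every Mutant embryo was above, as in 12.6% of all genes. The limits that the study states for p and for the fold change were read here as 0.05 for the unadjusted p and 0.5 on the log2 scale. By these criteria 1 member was lower, Des, or 2.63% beside 5.85% of all genes. No member was higher in edgeR or in DESeq2, beside 8.33% of all genes, and at an unadjusted p under 0.05 with no fold limit Fli1 alone was higher, 2.63% beside 19.1% of all genes, and 26.3% of the members were lower, beside 15.7%. Without J7 Angpt2 was also past these criteria, as higher, and Lyve1 was past them as lower without K14J28. None of the shares was tested against the rest of the genes.

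Embryos differed along the module. J7 was the highest of the 4 Control embryos for 27 members and the highest of all 8 for 15. J3, J5 and J6 were highest of all 8 for 2, 3 and 2 members, and K14J26, K14J28, K14J29 and K14J30 for 8, 1, 6 and 1. K14J30 was the lowest of all 8 for 16 members, K14J26 for 10, K14J28 for 3 and K14J29 for 2, and J3, J5, J6 and J7 for 4, 1, 2 and 0. Relative to the Control mean, the median member was −0.05, 0.00, −0.07 and 0.11 on the log2 scale in J3, J5, J6 and J7, and −0.14, −0.12, −0.03 and −0.25 in K14J26, K14J28, K14J29 and K14J30. K14J29 thus sat among the Control embryos and K14J30 furthest below them. The spread within a group was modest, with a median coefficient of variation over the members of 7.80% in Control and 10.4% in Mutant, beside 8.81% and 14.8% over all genes tested.

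**Figure D2:**
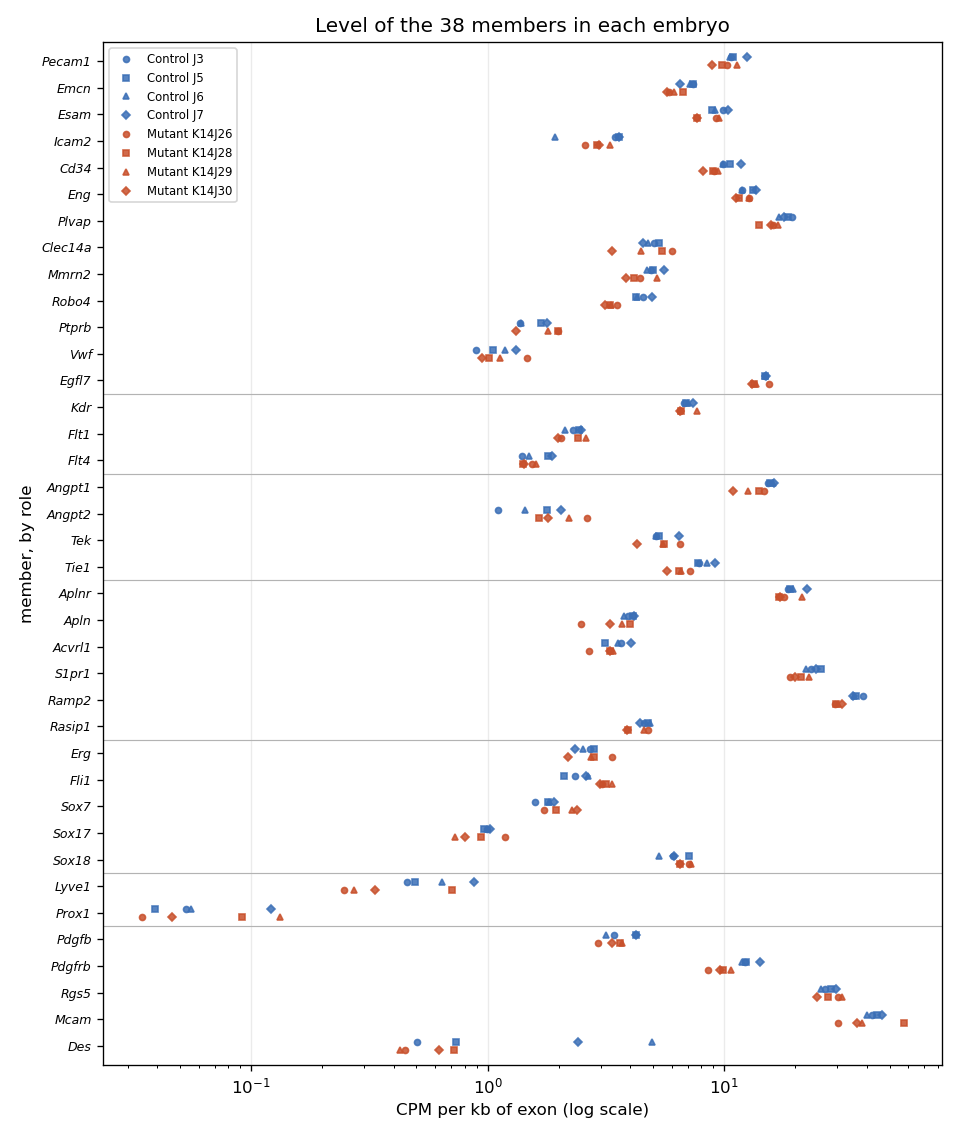
Level of each member in each embryo as CPM per kb of exon on a log axis, Control in blue and Mutant in orange, with a symbol for each embryo. Levels span from Mcam at the top of the range to Prox1 at the bottom, and for most members the points of both groups interleave.

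Per kb of exon, the members with the highest mean level over the 8 embryos were Mcam at 41.9, Ramp2 at 33.3, Rgs5 at 28, S1pr1 at 22.3, Aplnr at 19.1 and Plvap at 17.0 CPM per kb. Classical pan-endothelial genes were read in every embryo, with Pecam1 at 10.6, Eng at 12.4, Egfl7 at 14.4 and Kdr at 6.91 CPM per kb on average. The lymphatic label rested on little RNA, with Lyve1 at 0.504 and Prox1 at 0.0716 CPM per kb. Of 6 further lymphatic genes, Pdpn and Ccl21a had 0 counts in all 8 embryos. The cause of the 0 counts was not tested, and the handling of reads with multiple matches is not given. These counts therefore set no limit on the level of either gene. The other 4 were detected, with Stab1, which macrophages also express, from 33.1 to 46.2 CPM, Reln from 2.66 to 6.87, Mmrn1 from 0.970 to 2.91 and Stab2 from 0.166 to 0.675 CPM.

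Promoter sequence is shown for Robo4 and Tie1, which fell, and for Kdr and Tek, receptors of the same endothelial cells that did not pass the test. The windows come from RefSeq on GRCm38.p6. Each holds the longest run of bases before the start site that lies outside every annotated exon, 5′ to 3′ along the gene. Entries were found for 18 of the 38 members. Capitals mark only the letters AGGAAG or CGGAAG on either strand. Both hold GGAA, the core of the sites of the ETS factor family, to which FLI1 and ERG belong. GGAA beside other letters was not marked or counted. Robo4 lies on the plus strand and its window is chr9:37401722-37401896. Tie1 lies on the minus strand and its window is chr4:118490062-118490099. Kdr, on the minus strand, has chr5:75978459-75978705, and Tek, on the plus strand, has chr4:94739039-94739288.
Robo4: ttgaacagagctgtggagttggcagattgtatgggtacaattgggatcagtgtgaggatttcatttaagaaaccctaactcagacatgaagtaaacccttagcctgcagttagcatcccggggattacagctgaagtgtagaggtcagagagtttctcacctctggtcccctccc
Tie1: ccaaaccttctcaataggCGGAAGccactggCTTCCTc
Kdr: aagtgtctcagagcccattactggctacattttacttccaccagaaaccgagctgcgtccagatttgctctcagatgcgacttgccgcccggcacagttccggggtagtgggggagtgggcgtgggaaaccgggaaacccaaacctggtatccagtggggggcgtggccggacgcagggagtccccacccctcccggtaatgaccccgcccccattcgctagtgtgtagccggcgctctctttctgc
Tek: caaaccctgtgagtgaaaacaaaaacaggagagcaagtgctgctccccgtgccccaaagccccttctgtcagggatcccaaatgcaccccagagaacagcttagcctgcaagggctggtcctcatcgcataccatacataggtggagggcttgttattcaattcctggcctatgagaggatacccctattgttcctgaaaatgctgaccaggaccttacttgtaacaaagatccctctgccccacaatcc
Tie1 held 2 matches within 38 bases, while the windows of Robo4, Kdr and Tek held 0. Members that did not pass the test also held matches, with 2 each in Flt1, Eng and Emcn and 3 in 1 of the windows of Egfl7. In the whole 250 bases Robo4 held 1 match, which did not lie wholly within the bases shown. Over all members with an entry, 10 of 18 had a match in some window of 250 bases, or 47.8% of their 23 windows beside 39.2% of 32851 windows in the table. Fli1 and Ramp2 have no entry in the table.

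Among the 13 junction and surface genes 1 fell, a share near the 6.61% of all genes tested, and 4 were lower at an unadjusted p under 0.05. Robo4, an endothelial receptor that keeps vessels quiet and tight, stood at 24.1, 22.4, 22.7 and 26.3 CPM in the Control embryos and at 18.7, 17.4, 17.7 and 16.6 CPM in the Mutant embryos. The groups were apart, with the Mutant values close together. Its log2 fold change was −0.44 ± 0.08 (SE, n = 4 and 4; adjusted p = 0.0135, edgeR with Benjamini-Hochberg adjustment), the furthest from zero among the members that fell. The call was lost only without K14J29 among the 8 embryos left out singly (adjusted p = 0.0514, edgeR), at a like fold change of −0.44.

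Plvap, the protein of the diaphragms in fenestrated capillaries, was the most abundant surface gene per kb. It had 38.4, 37.0, 33.8 and 35.5 CPM in Control and 32.1, 27.9, 33.7 and 31.5 CPM in Mutant. Only K14J29, just under J6, came near the Control range, and the fold change of −0.21 ± 0.08 did not pass the test (adjusted p = 0.0901, edgeR with Benjamini-Hochberg adjustment). Cd34, a sialomucin of endothelium and of blood progenitors, went from a mean of 76.8 ± 6.75 to 64.8 ± 3.94 CPM (SD, n = 4), and Emcn, a sialomucin of capillaries and veins, from 38.5 ± 2.17 to 32.9 ± 2.30 CPM. Their adjusted p was 0.0596 and 0.0650 in edgeR, and DESeq2 called both lower. The adhesion gene Pecam1 averaged 69.5 ± 5.55 and 62.6 ± 6.46 CPM, with overlap. The remaining surface genes (Esam, Icam2, Eng, Clec14a, Mmrn2, Ptprb, Vwf and Egfl7) had fold changes from −0.20 for Mmrn2 to 0.19 for Ptprb, a phosphatase that dampens TEK. Egfl7, a secreted factor whose gene carries the microRNA Mir126a, shares exon bases on its own strand with Gm20532, which fell by 0.41 on the log2 scale (adjusted p = 0.0283, edgeR) while Egfl7 stood at −0.10. The call of Gm20532 was lost without J3, J5, J6, J7, K14J29 or K14J30 (0.0532 to 0.0810).

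No VEGF receptor passed the test. Kdr, the main signalling receptor of VEGF-A, averaged 63.3 ± 2.34 CPM in Control and 61.5 ± 5.12 CPM in Mutant, and its 95% interval on the log2 scale ran from −0.20 to 0.12. Flt1, which binds VEGF-A as a decoy, and Flt4, the receptor of VEGF-C and VEGF-D, had fold changes of −0.05 and −0.13. In edgeR 0 of the 3 had an unadjusted p under 0.05, and DESeq2 called 0. The ratio of Kdr to Flt1 per kb was 3.01 ± 0.21 in Control and 3.03 ± 0.24 in Mutant (SD, n = 4).

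Of 7 VEGF ligands and co-receptors, 1 rose and 1 fell, beside 9.52% and 6.61% of all genes tested. Vegfa, the chief growth factor of vessels, was at 74.98, 76.7, 68.9 and 70.1 CPM in Control and at 89.0, 86.0, 83.9 and 82.7 CPM in Mutant. The groups were apart, and the log2 fold change was 0.23 ± 0.06 (adjusted p = 0.0316, edgeR with Benjamini-Hochberg adjustment). The call was lost without J3, J5, J6, J7 or K14J29 (adjusted p from 0.0607 to 0.0920, edgeR). It was also lost under library size scaling (0.13), under upper quartile scaling, with no count filter and with Xist as a covariate. Vegfd, which acts on FLT4, was a rare transcript with 3.10, 3.34, 1.40 and 4.66 CPM in Control and 0.433, 0.832, 0.208 and 0.815 CPM in Mutant. It fell by 2.44 on the log2 scale (SE 0.46; adjusted p = 0.0152, edgeR), a call lost only without J7 among single embryos (adjusted p = 0.0510).

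The angiopoietin system has a stabilising ligand, a ligand that loosens vessels, and a pair of receptors, of which TIE1 modulates TEK. Tie1 was at 38.4, 38.0, 41.7 and 44.8 CPM in Control and at 35.4, 31.5, 32.3 and 28.3 CPM in Mutant. K14J30 was lowest, and no value overlapped. The log2 fold change was −0.35 ± 0.09 (adjusted p = 0.0291, edgeR with Benjamini-Hochberg adjustment), and the call held without K14J26 or K14J28 and was lost without each of the other 6 embryos (J3, J5, J6, J7, K14J29, K14J30; adjusted p from 0.0522 to 0.0797). Tek, the partner receptor, averaged 25.9 ± 2.98 and 25.7 ± 4.26 CPM, a fold change of −0.01 whose 95% interval ran from −0.31 to 0.28. The difference between the responses of Tie1 and Tek was not tested.

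Angpt1, the stabilising ligand, was even in Control at 80.0, 81.3, 83.8 and 84.9 CPM, and lower in Mutant at 76.6, 72.9, 65.5 and 56.7 CPM. All 4 Mutant values were below all Control values, but the fold change of −0.28 ± 0.09 missed the threshold (adjusted p = 0.0636, edgeR with Benjamini-Hochberg adjustment). It passed without K14J26 (0.0231) or K14J28 (0.0370), and in DESeq2 (0.0383). Angpt2, made by endothelium itself at sprouting sites, was at 4.10, 6.56, 5.29 and 7.53 CPM in Control and 9.66, 6.06, 8.11 and 6.64 CPM in Mutant, with overlap and a fold change of 0.36 ± 0.21 (adjusted p = 0.253). Per kb of exon, the ratio of Angpt1 to Angpt2 in an embryo was 13.8, 8.79, 11.2 and 7.99 in Control and 5.62, 8.53, 5.72 and 6.05 in Mutant. K14J28 alone of the Mutant embryos lay within the Control range, above J7.

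**Figure D3:**
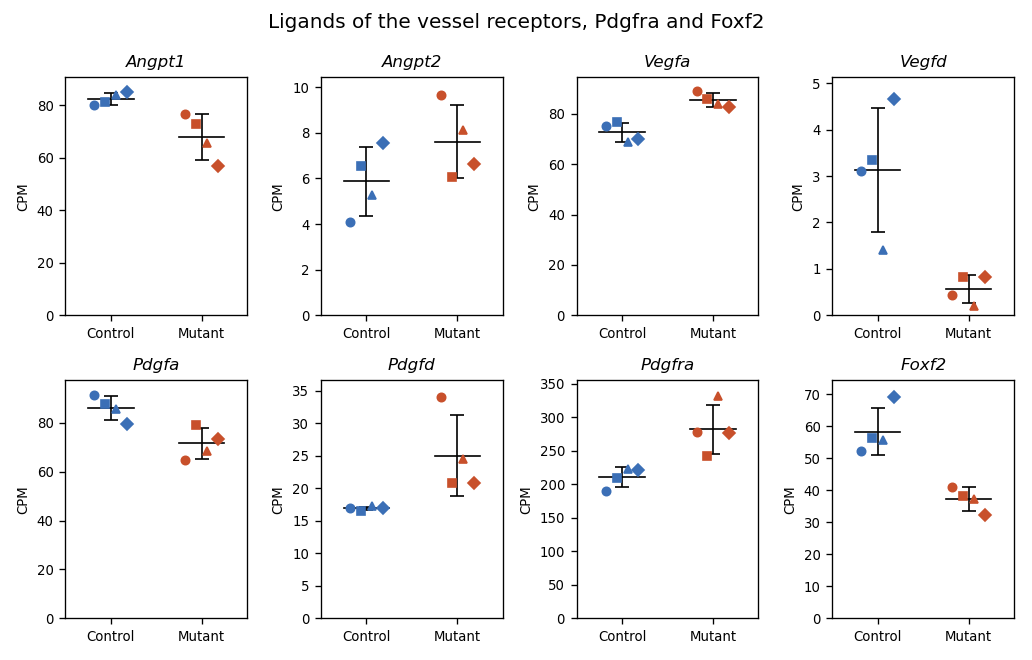
CPM of vessel ligands, Pdgfra and the mural transcription factor Foxf2 in each embryo (circle, square, triangle and diamond are J3, J5, J6, J7 in blue and K14J26, K14J28, K14J29, K14J30 in orange), with the mean and SD of each group (n = 4). Angpt1, Vegfa, Vegfd, Pdgfa, Pdgfd, Pdgfra and Foxf2 show no overlap between the groups, and Angpt2 overlaps.

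Of 6 genes for G protein and BMP signalling at the endothelium, 1 fell, beside 6.61% of all genes tested. Ramp2, which turns the receptor CALCRL into a receptor of adrenomedullin and keeps vessels from leaking, was at 127, 119, 117 and 116 CPM in Control and at 97.5, 98.2, 99.9 and 104 CPM in Mutant. The groups were apart, and the log2 fold change was −0.26 ± 0.05 (adjusted p = 0.0186, edgeR with Benjamini-Hochberg adjustment). The call was lost without J3, J5, J7 or K14J29 (adjusted p from 0.0508 to 0.0612). Ramp2 shares 1103 exon bases with Vps25 on the same strand, and Vps25 had a fold change of −0.21 ± 0.06 (adjusted p = 0.0543, edgeR), so the reads of the pair may have been split or mixed. Of the adrenomedullin and apelin partners Apela, Adm, Calcrl, Ramp1 and Ramp3, none of 5 passed in edgeR, 1 was higher at an unadjusted p under 0.05, and DESeq2 called 1 higher.

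S1pr1, the sphingosine-1-phosphate receptor that steadies endothelial junctions, was at 70.9, 77.9, 67.8 and 74.4 CPM in Control and 57.8, 64.6, 69.3 and 60.6 CPM in Mutant. K14J29 alone of the Mutant embryos reached the Control range, and the fold change was −0.21 ± 0.08 (adjusted p = 0.0876, edgeR with Benjamini-Hochberg adjustment). Aplnr, the apelin receptor of sprouting and venous endothelium, was at 68.9, 70.1, 72.4 and 83.2 CPM in Control and 66.0, 63.0, 79.2 and 63.9 CPM in Mutant. K14J29 was again within the Control range, and the fold change was −0.11 ± 0.09. Its ligand Apln, the BMP9 receptor Acvrl1 and the junction regulator Rasip1 had fold changes of −0.24, −0.18 and −0.12, none past the test. With single embryos left out Apln ran from −0.34 to −0.12 and Acvrl1 from −0.26 to −0.11, both nearest zero without K14J26.

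Of 5 transcription factors of endothelium, 1 rose, beside 9.52% of all genes tested. Fli1, an ETS factor of endothelium and of blood cells, was at 8.14, 7.34, 9.24 and 9.05 CPM in Control and at 10.6, 11.0, 11.7 and 10.4 CPM in Mutant. The groups were apart, and the log2 fold change was 0.37 ± 0.10 (adjusted p = 0.0422, edgeR with Benjamini-Hochberg adjustment). The call held only without K14J26 (0.0441) and was lost without each of J3, J5, J6, J7, K14J28, K14J29 and K14J30 (0.0519 to 0.119). It was also lost under library size scaling (0.27, adjusted p = 0.175), under upper quartile scaling and with no count filter. Sox7 and Sox18, SOXF factors of early vessels, had fold changes of 0.23 and 0.15, the ETS factor Erg 0.10 (−0.015 under library size scaling), and Sox17, the arterial SOXF factor, −0.13. None of these 4 passed. The blood cell lists beside Fli1 and Cd34 showed no call: 0 of 9 macrophage, 0 of 6 tested erythroid and 0 of 4 tested platelet genes passed in edgeR, at an unadjusted p under 0.05, or in DESeq2. Summed macrophage CPM was 106, 136, 138 and 125 in Control and 88.6, 197, 140 and 128 in Mutant, with K14J28 highest. Its sum was carried by Csf1r at 92.8 CPM and Cd68 at 42.3 CPM. Ptprc was also highest in K14J28, at 10.4 CPM beside at most 6.69 CPM in any other embryo. In K14J28 Adgre1 lay within the Control range, while C1qa, C1qb, C1qc, Mrc1 and Fcgr1 lay below every Control embryo. The part of blood cells in the Fli1 result was not tested.

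**Figure D4:**
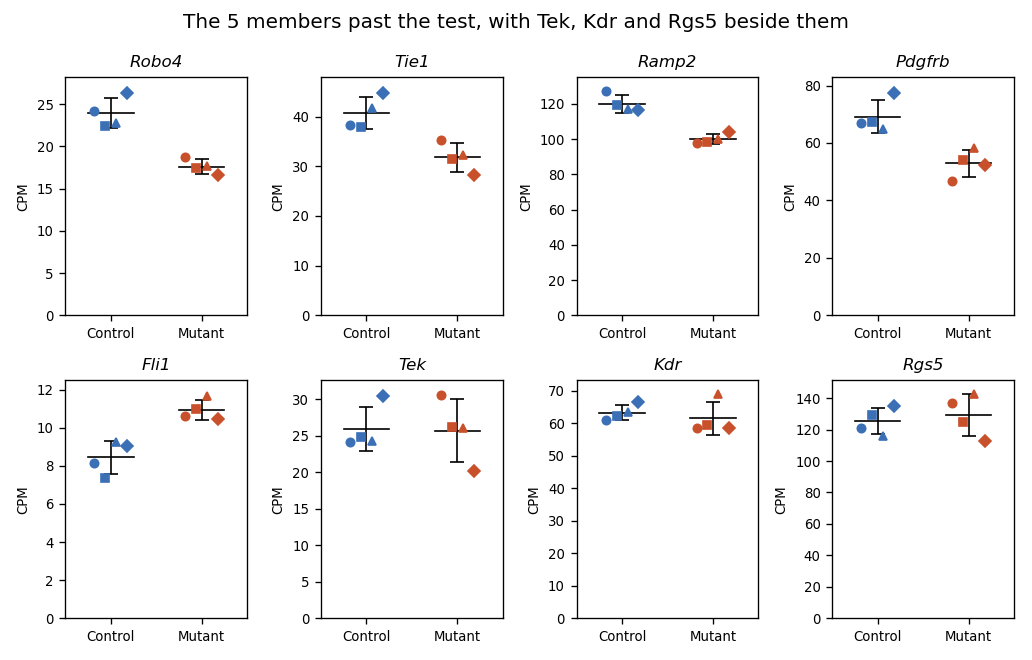
CPM of the members that passed the test, Robo4, Tie1, Ramp2, Pdgfrb (lower) and Fli1 (higher), beside Tek, Kdr and Rgs5, in each embryo (symbols run J3, J5, J6, J7 and K14J26, K14J28, K14J29, K14J30 from left to right) with the mean and SD of each group (n = 4). In the 5 that passed, no Mutant value lies within the Control range, while Tek, Kdr and Rgs5 overlap.

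Lymphatic members were scarce. Lyve1, a hyaluronan receptor of lymphatics and of some macrophages, was at 1.33, 1.44, 1.87 and 2.57 CPM in Control and at 0.721, 2.06, 0.797 and 0.970 CPM in Mutant. K14J28 was the only Mutant embryo within the Control range. The fold change of −0.66 ± 0.37 did not pass (adjusted p = 0.238, edgeR with Benjamini-Hochberg adjustment), and passed without K14J28 (−1.13, adjusted p = 0.0257). It was −0.43 without J7 and −0.27 without J6 and J7. Prox1, the master factor of lymphatic identity, was at 0.443, 0.330, 0.467 and 1.01 CPM in Control and 0.288, 0.765, 1.11 and 0.388 CPM in Mutant, from 6 to 32 counts a library. Its fold change of 0.17 ± 0.49 did not pass (adjusted p = 0.837, edgeR). The interval of Prox1 ran from −0.94 to 1.28, so neither the sign nor the size of a difference was settled. Of 4 other lymphatic genes tested, 0 passed in edgeR, at an unadjusted p under 0.05, or in DESeq2.

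Among mural genes, Pdgfrb fell. This receptor of pericytes and of much dental mesenchyme was at 67.0, 67.5, 64.9 and 77.4 CPM in Control and at 46.8, 53.9, 58.4 and 52.5 CPM in Mutant. J7 was highest, K14J26 lowest, and the groups were apart. Its log2 fold change was −0.39 ± 0.09 (adjusted p = 0.0215, edgeR with Benjamini-Hochberg adjustment), with the call lost without J3, J5 or J7 (0.0535 to 0.0632). Rgs5, a G protein regulator that marks pericytes more narrowly, was at 121, 129, 116 and 135 CPM in Control and 137, 125, 143 and 113 CPM in Mutant. The groups overlapped, with a fold change of 0.04 ± 0.09 that was −0.06 under library size scaling and −0.00063 under upper quartile scaling, and a 95% interval from −0.15 to 0.24. Per kb, the ratio of Rgs5 to Pdgfrb was 2.18, 2.30, 2.16 and 2.10 in Control and 3.53, 2.78, 2.95 and 2.59 in Mutant, with every Mutant embryo above. Pdgfb, the endothelial ligand, averaged 15.6 ± 2.26 and 14.1 ± 1.45 CPM with overlap.

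Of 4 further genes of the PDGF family, 2 rose and 1 fell, beside 9.52% and 6.61% of all genes tested. Pdgfra, the receptor of dental mesenchyme and fibroblasts, averaged 211 ± 14.7 CPM in Control and 282 ± 36.8 CPM in Mutant, and rose by 0.42 ± 0.10 on the log2 scale (adjusted p = 0.0247, edgeR with Benjamini-Hochberg adjustment). Per kb, Pdgfra over Pdgfrb was 1.67 ± 0.15 in Control and 2.92 ± 0.34 in Mutant (SD, n = 4). Pdgfd, a ligand of PDGFRB, rose (0.56 ± 0.15; adjusted p = 0.0371) and Pdgfa, an epithelial ligand of PDGFRA, fell (−0.27 ± 0.08; adjusted p = 0.0447). With single embryos left out, Pdgfra lost its call without J3, J5, J7 or K14J29 (0.0648 to 0.0730), and it also lost it under library size scaling and with Xist as a covariate. Pdgfd lost it without J3, J5, J6, J7 or K14J29 (0.0733 to 0.0933), and Pdgfa without each embryo but K14J28 (0.0567 to 0.119), under library size scaling, with no count filter and with Xist as a covariate.

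Of 15 further mural genes tested, 2 rose and 1 fell, shares near the 9.52% and 6.61% of all genes tested. Kcnj8, the potassium channel of pericytes, averaged 20.4 and 28.5 CPM and rose by 0.48 ± 0.10 (adjusted p = 0.0171, edgeR with Benjamini-Hochberg adjustment). Anpep, an aminopeptidase of pericytes and of other mesenchyme, rose by 0.95 ± 0.20 (adjusted p = 0.0188). Foxf2, a transcription factor of pericytes and of oral and dental mesenchyme, was at 52.3, 56.2, 55.7 and 69.0 CPM in Control and 41.0, 38.3, 37.4 and 32.1 CPM in Mutant. It fell by 0.65 on the log2 scale (SE 0.11; adjusted p = 0.0104), a call that held without each embryo in turn. Kcnj8 lost its call without J5, J7 or K14J29 (0.0545 to 0.0591) and Anpep without J3, J7 or K14J29 (0.0585 to 0.0651). At an unadjusted p under 0.05, 2 of the 15 were higher and 3 lower, and DESeq2 called 2 higher and 2 lower. Tagln and Myh11 were lower by the criteria of the study as read here (−0.55 each; adjusted p = 0.128 and 0.0615, edgeR), with overlap between the groups.

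In Mcam, the adhesion protein CD146 of pericytes and endothelium, 1 embryo stood apart. It had 142, 148, 135 and 156 CPM in Control and 101, 193, 128 and 122 CPM in Mutant, so K14J28 was above every Control embryo and the other 3 below. The fold change was −0.09 ± 0.17 (adjusted p = 0.725, edgeR with Benjamini-Hochberg adjustment) with K14J28 and −0.32 without it (adjusted p = 0.0369). Smooth muscle actin Acta2, the most abundant mural gene per kb, was at 205, 212, 156 and 201 CPM in Control and likewise highest in K14J28 at 218 CPM, with 88.1, 130 and 112 CPM in K14J26, K14J29 and K14J30. Its fold change was −0.50 ± 0.25 (adjusted p = 0.181, edgeR) and −0.82 without K14J28 (adjusted p = 0.00805). K14J28 and K14J29 were also the embryos that expressed Xist, at 1930 and 1468 CPM, beside at most 1.09 CPM in the other 6. No Control embryo expressed it, so sex was not balanced between the groups.

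Des had the widest fold change of the module. This intermediate filament of pericytes and of all muscle was at 1.88, 2.76, 18.52 and 9.02 CPM in Control and at 1.68, 2.70, 1.59 and 2.33 CPM in Mutant. J6 and J7 were far above the rest, while J3 lay among the Mutant embryos and J5 just above them. The fold change of −1.95 ± 0.64 had an adjusted p of 0.0659 in edgeR and passed in DESeq2 (0.0362), and it was −0.17 without J6 and J7. Skeletal muscle transcripts stood high in the same embryos. The summed CPM of 11 muscle genes was 5.93, 15.1, 445 and 226 in Control and 6.44, 14.3, 12.5 and 20.9 in Mutant, with none of the 11 at 0 throughout. The most abundant of them per kb, Acta1, had 131 and 52.7 CPM in J6 and J7 and at most 5.65 CPM elsewhere. Of the 10 tested, 1 fell, beside 6.61% of all genes tested. This was Ckm (adjusted p = 0.0382, edgeR with Benjamini-Hochberg adjustment), a call lost without J6, J7, K14J29 or K14J30 (0.0748 to 0.101). At an unadjusted p under 0.05, 9 of the 10 were lower, and DESeq2 called 7 lower.

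**Figure D5:**
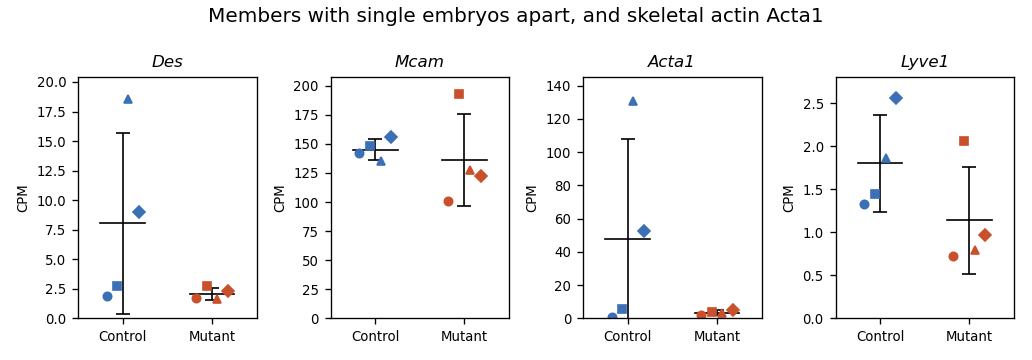
CPM of Des, Mcam, the skeletal muscle actin Acta1 and Lyve1 in each embryo (symbols run J3, J5, J6, J7 and K14J26, K14J28, K14J29, K14J30 from left to right) with the mean and SD of each group (n = 4). Des and Acta1 are high in J6 and J7, and Mcam and Lyve1 are highest among Mutant embryos in K14J28.

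Genes around the module gave a mixed picture. Counts of the lists that follow stand beside 9.52% of all genes tested that rose and 6.61% that fell. Of 20 other pan-endothelial genes 1 fell, the membrane protein Myct1 (−0.50 ± 0.14; adjusted p = 0.0397, edgeR with Benjamini-Hochberg adjustment), a call kept only without K14J28 among single embryos (0.0570 to 0.105 without J3, J5, J6, J7, K14J26, K14J29 or K14J30). The most abundant of these per kb, the VE-cadherin gene Cdh5, was at 73.5, 75.6, 80.7 and 85.5 CPM in Control and 68.1, 66.9, 68.7 and 51.5 CPM in Mutant, without overlap and with an adjusted p of 0.0642. Of 14 arterial and Notch genes, the Notch target Nrarp fell beside Jag1 (−0.45 ± 0.07; adjusted p = 0.0104) and 0 rose in edgeR. The calls of Nrarp and Jag1 held without each embryo in turn. At an unadjusted p under 0.05, 4 of the 14 were higher (Dll4, Hey1, Heyl and Efnb2, at 0.53, 0.33, 0.41 and 0.22 on the log2 scale), and 3 were lower (Nrarp, Jag1 and Hey2), beside 19.1% higher and 15.7% lower of all genes. DESeq2 called 2 higher and the same 3 lower. Dll4, the endothelial Notch ligand, was past the criteria of the study as read here, with K14J28 and K14J30 within the Control range. With single embryos left out its fold change ran from 0.34 to 0.67. It was under the limit of 0.5 without J3, J5, K14J26 or K14J29, and under library size and upper quartile scaling. Past these criteria as lower was the Notch target Hey2 (−1.08 ± 0.33; adjusted p = 0.0531 in edgeR and 0.00605 in DESeq2). Hey2 passed without K14J28 (−1.46; adjusted p = 0.00841, edgeR). Both venous genes passed: Nr2f2, the factor of venous identity that mesenchyme also expresses, rose (0.45 ± 0.12; adjusted p = 0.0323), and the receptor Ephb4 fell (−0.41 ± 0.08; adjusted p = 0.0160). Nr2f2 lost its call without J3, J5, J6, J7 or K14J29 (0.0615 to 0.0901), and Ephb4 without J3 or K14J29 (0.0515 to 0.0571).

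Of 7 tip cell genes, Plaur, the urokinase receptor, rose (1.23 ± 0.36; adjusted p = 0.0476, edgeR with Benjamini-Hochberg adjustment), at 30.5 CPM in K14J26 and from 9.15 to 14.1 CPM in the other Mutant embryos. Its fold change without K14J26 was 0.72. Of 9 hypoxia targets 2 rose, Vegfa and Ndrg1 (1.65 ± 0.35; adjusted p = 0.0188, edgeR). Pgk1, a glycolytic enzyme gene and the most abundant of them per kb, was lower in every Mutant embryo without passing (−0.40 ± 0.13; adjusted p = 0.0631, edgeR), and DESeq2 called it lower (0.0248). Slc2a1 and Bnip3 went the other way (0.20 each; adjusted p = 0.102 and 0.0905, edgeR), so that 4 of the 9 were higher and 1 lower at an unadjusted p under 0.05, and DESeq2 called 2 higher and 1 lower. Of 8 basement membrane genes, Col4a1, a collagen of basement membranes and not of vessel walls alone, fell (−0.29 ± 0.08; adjusted p = 0.0397, edgeR). Sparc, also made by odontoblasts and bone cells, rose (0.93 ± 0.24; adjusted p = 0.0323, edgeR). Col4a2 (−0.19), Nid1 (−0.31) and Nid2 (−0.39) were below every Control embryo in all Mutant embryos without passing (adjusted p = 0.0868, 0.0596 and 0.0634), while Lama5 (0.20) was above in all and Hspg2 (0.61) overlapped (adjusted p = 0.158 and 0.0757). Lama5 and Hspg2 were highest in K14J26, at 501 and 650 CPM. With single embryos left out their fold changes ran from 0.098 to 0.24 and from 0.34 to 0.74. At an unadjusted p under 0.05, 4 of the 8 were lower and 2 higher, the same counts as in DESeq2, beside 15.7% and 19.1% of all genes. Of 5 Schwann cell genes, Erbb3 fell (−0.37 ± 0.11; adjusted p = 0.0450). With single embryos left out, Plaur (0.0793 to 0.122) and Sparc (0.0531 to 0.0916) lost their calls without J3, J5, J6, J7 or K14J29, and Ndrg1 without J3, J5, J7 or K14J29 (0.0525 to 0.0651). Erbb3 lost it without J3, J5, J6, J7, K14J29 or K14J30 (0.0625 to 0.117), and Col4a1 without these or K14J26 (0.0505 to 0.102).

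Among genes of hard tissue formation, some rose and others fell or did not pass. The summed CPM of 8 dental epithelium genes, of which Amelx, the main enamel protein gene, was most abundant per kb, was 5366, 6411, 8137 and 4791 in Control and 121153, 8412, 31905 and 15209 in Mutant. None of the 8 was at 0 throughout. Krt14, Amelx, Ambn and Enam rose (adjusted p from 0.0217 to 0.0299, edgeR with Benjamini-Hochberg adjustment), and in K14J28 the sum was close to that of J6. Epcam, a surface gene of epithelium, was lower in every Mutant embryo, at 255, 245, 219 and 218 CPM in Control and 113, 190, 161 and 195 CPM in Mutant (−0.51 ± 0.16; adjusted p = 0.0527 in edgeR and 0.0126 in DESeq2). Cdh1 (0.47; adjusted p = 0.0546) and Krt5 (0.31; adjusted p = 0.0650) were higher without passing in edgeR, and 6 of the 8 were higher and 1 lower both at an unadjusted p under 0.05 and in DESeq2. Of 6 odontoblast and dental mesenchyme genes, Dspp and Col1a1 rose and Msx1, Barx1 and Pax9 fell (0.0130 to 0.0406). Col1a1 overlapped between the groups through K14J28, and Dmp1 did not pass (0.59; adjusted p = 0.193). With single embryos left out, Barx1 lost its call only without K14J29, Pax9 without J3, J7 or K14J29, and Krt14, Amelx, Enam and Dspp without J3, J5, J7 or K14J29. Ambn lost it without J3, J5, J6, J7 or K14J29, and Msx1 and Col1a1 without these or K14J30. Whether these changes reflect the make-up of the tissue was not tested, nor was their part in the levels of the vessel genes.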

How the data were processed

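The authors trimmed single-end reads, aligned them to GRCm38 and deposited a table of counts for each embryo. The submitters' processing notes name STAR, featureCounts and GRCm38.p3, while the methods of the study name another counter; the release of the annotation and the handling of strand and of multiple matches are not given in the sources used here. The kit does not mark strand, so overlapping and antisense genes cannot be told apart. Names and exon lengths came from GENCODE M21, which holds 42548 of 43629 identifiers. A gene was kept where 2 or more embryos of a group had 10 counts or more. They were scaled by TMM and tested in edgeR 4.0.16 (R 4.3.3, limma 3.58.1) by the quasi-likelihood test, without covariates, with Benjamini-Hochberg adjustment over all genes kept. CPM are counts relative to the TMM-scaled library size, computed from the deposited counts. A floor of 3 counts equals at most 0.166 CPM. Intervals are 95% and cover the spread between embryos. No embryo was left out. The test was tried on simulated counts first. No pair of replicates was alike within counting noise (chi-square per degree of freedom at least 7.17).

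The members and gene lists were chosen with earlier results of these data known. All members are accounted for. Members past the test, the 6 most abundant per kb of exon, and Pdgfrb, Rgs5, Lyve1 and Prox1 were given in every embryo. Of 20 other lists, up to 6 called genes of smallest p were named. Values in every embryo for Angpt1, Angpt2, Des, Cdh5, Vegfa, Vegfd and Foxf2 beyond that rule, and Vps25, Gm20532, Pgk1, Acta1, Acta2, Tagln, Myh11 and the single genes named from the macrophage, arterial, basement membrane, hypoxia, dental epithelium, odontoblast and further lymphatic lists without a call, were chosen after their values were seen. Alternatives were relative log expression, library size and upper quartile scaling, DESeq2 1.42.0, no count filter, each embryo left out, J6 and J7 left out, Xist as a covariate, other thresholds and, chosen after seeing the data, K14J28 and K14J29 left out.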

Additional observations from a re-analysis of the deposited data

Results flagged for a closer look

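In 5 of 76 groups of values (38 members in 2 groups), a single embryo stood far from the other 3, by a gap that filled most of the range of the 4 (Dixon's 95% limit). Chance gives about 1 in 20. Pecam1 was 77.8 CPM in J7 and at most 67.6 CPM in the other Control embryos. Tek was also high in J7, at 30.4 CPM. Icam2, a leukocyte adhesion gene of endothelium, was low in J6 at 3.68 CPM. Kdr was high in K14J29 at 69.1 CPM, beside 58.6 to 59.5 CPM in the other Mutant embryos. Acvrl1 was low in K14J26 at 11.4 CPM.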

How the results depend on the processing

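Of the 38 members, 30 kept their sign under all 16 alternatives. The count of members lower at an adjusted p under 0.05, 4 as reported, was 8 in DESeq2 and 6 under library size and under upper quartile scaling (with Cd34 and Angpt1 added). It was 0 without J6 and J7, where 3 of all genes were called higher and 4 lower. With single embryos left out it ran from 1 to 8, when 170 to 1843 of all genes were called lower and 250 to 2479 higher. The count higher, 1 as reported, was 0 without J6 and J7, without K14J28 and K14J29, with Xist as a covariate, under library size or upper quartile scaling and with no count filter, and 0 to 1 with single embryos left out. The median log2 fold change of the members was −0.23 under library size scaling, where the median of all genes was −0.09, and −0.18 to −0.09 with single embryos left out. Over all genes, 1631 higher and 1133 lower became 855 and 1060 under library size and 1363 and 1448 under upper quartile scaling. Past the criteria of the study was 1 member (Lyve1 in place of Des with Xist as a covariate or without K14J28 and K14J29, Robo4 besides Des under library size, 0 without J6 and J7), and 5 passed an adjusted p under 0.05 with no fold limit. Without J6 and J7 every call reported here was lost, that of Jag1 included. Of genes outside the module, Vegfa, Myct1, Pdgfa, Col4a1 and Erbb3 lost their calls under library size scaling and with no count filter, Pdgfra under library size, Msx1 with no count filter, and Vegfa under upper quartile scaling. Vegfa, Pdgfa, Ckm, Msx1 and Gm20532 lost theirs with Xist as a covariate and without K14J28 and K14J29, Pdgfra in the former, and Myct1 and Erbb3 in the latter. Robo4 and Pdgfrb stayed called without K14J28 and K14J29 and with Xist as a covariate, where Tie1 (−0.37 and −0.35), Ramp2 (−0.26 and −0.25) and Fli1 (0.31 and 0.32) did not at fold changes close to those reported. S1pr1 was added in both and Mcam without K14J28 and K14J29. The log2 fold change changed sign in 8 members, none past the test. Under library size scaling it was −0.086 for Vwf, −0.015 for Erg and −0.062 for Rgs5, and under upper quartile scaling −0.016 for Vwf and −0.00063 for Rgs5. With Xist as a covariate it was −0.81 for Prox1 and −0.0051 for Rgs5, without K14J28 and K14J29 −0.016 for Rgs5, and without J6 and J7 0.063 for Tek. With single embryos left out it ran from −0.14 to 0.12 for Clec14a, −0.11 to 0.11 for Vwf, −0.12 to 0.011 for Flt1, −0.11 to 0.087 for Tek, −0.0067 to 0.19 for Erg, −0.23 to 0.65 for Prox1, −0.0061 to 0.10 for Rgs5 and −0.32 to 0.023 for Mcam. Outside the module, uncalled genes changed sign too. Without J6 and J7 it was 0.026 for Acta1, 0.13 for Stab1 and 0.019 for Stab2, without K14J28 and K14J29 −0.017 for Csf1r, 0.013 for Stab1 and −0.023 for Mmrn1, with Xist as a covariate −0.064 for Csf1r, −0.026 for Cd68 and 0.034 for Stab1, and under library size scaling −0.050 for Reln. With single embryos left out it ran from −0.15 to 0.0065 for Stab1, −0.28 to 0.44 for Reln and −0.077 to 0.50 for Mmrn1. The cause of these changes was not tested, beyond the smaller number of embryos where some were left out. Prox1 had 6 to 32 counts a library. The parts of depth and of the spread between embryos in its wide interval were not tested. No paired analysis was possible because the groups share no replicate numbers and no label says which embryos share a litter.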
